A study of Medicago truncatula with 21 samples.

Results

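Seeds of the Medicago truncatula line abi4-1 were compared with seeds of the wild-type line R108 at 24 days after pollination (DAP), with 3 libraries in each group. The comparison covers the 19508 transcript identifiers, of 44473 in the deposited table, with a value of at least 10 normalized counts in at least 3 of the 6 libraries. The abi4-1 line, NF19813, carries a Tnt1 retrotransposon insertion in the R108 background, and the R108 plants serve as the unmutated parent. It was the only mutant line sampled at 24 DAP, and Tnt1 lines are known to carry further insertions elsewhere in the genome. The other stages, 13 DAP and the mature seed, and a second line, abi4-2 (NF2525), sampled as mature seeds, are used below to see how the 24 DAP differences look in other libraries. Plants of all groups were grown in trays of vermiculite under long days, and whole seeds taken from the pods were frozen before RNA extraction.

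ABI4 encodes an AP2/ERF transcription factor, studied chiefly in Arabidopsis thaliana, where it takes part in responses to abscisic acid and to sugars. Legume seeds fill with storage protein and other reserves after embryo patterning, then lose water and chlorophyll as they mature, and abscisic acid is a main signal of that passage. A whole seed holds embryo, endosperm and seed coat, so fewer cells of a type and less RNA per cell cannot be told apart in these libraries. No name or role is attached to an identifier here, since the table holds none and 0 identifiers were found in the RefSeq gene list. For the same reason the ABI4 transcript and markers of seed tissue were not examined against the labels.

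The 6 libraries held 18365151 to 22139476 normalized counts, and 18787 to 19490 identifiers reached 10 in a library. Replicates of a group correlated at 0.968 to 0.980 on the log2 scale, and libraries of different groups at 0.930 to 0.939. The first principal component held 62.1% of the variance and placed the R108 libraries at -48.7 to -46.3 and the abi4-1 libraries at 45.7 to 48.8. The median SD of an identifier over 3 replicates was 0.179 on the log2 scale in R108 and 0.167 in abi4-1. At the lower bound of the comparison, the third-highest value of an identifier was 10 just inside and 9.99 just outside, and 281 tested identifiers lay between 10 and 11.

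More transcripts were higher than lower in abi4-1, and the share of rises among the calls went from 60.1% of all to 80.3% of those of 8-fold or more. With limma, a linear model of log2(value + 1) fitted over all identifiers, and a Benjamini-Hochberg adjusted p under 0.05, 3130 identifiers were called, 16.0% of those tested. Of these, 1881 (9.64%) were higher and 1249 (6.40%) were lower in abi4-1. At 2-fold or more there were 927 higher and 304 lower, at 4-fold 333 (1.71%) and 88 (0.451%), and at 8-fold 139 and 34. At 16-fold the counts were 49 and 19, and at 64-fold 6 and 7, with rises making up 72.1 and 46.2% of those changes. The higher calls had a median log2 change of 0.98 and the lower calls -0.65, while the median over all tested was -0.011.

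Groups did not overlap for 3111 of the 3130 called identifiers, against 6528 (33.5%) of all tested. The change had the same sign in each of the 3 same-numbered pairs for 3129 of the calls. The calls were chosen by a test on these same libraries, which favours both counts, so these are a description. Together the higher calls took 2.54 to 2.91% of the library total in R108 and 5.15 to 5.50% in abi4-1. The lower calls took 4.84 to 5.61% in R108 and 3.13 to 3.74% in abi4-1. The 333 identifiers at least 4-fold higher went from 0.0840 ± 0.0308% to 0.791 ± 0.00642% of the total (SD, n = 3), and the 88 at least 4-fold lower from 0.138 ± 0.0321% to 0.0192 ± 0.00211%. These shares describe identifiers chosen by the same test and are given without a test of their own.

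The balance of rises and falls depended on the scaling and the fit. With libraries scaled to their column total, 1839 identifiers were higher and 677 lower, and with totals taken without the 5 most abundant identifiers, 2136 and 807. Rises then made up 73.1 and 72.6% of the calls, against 60.1% as deposited. With all 21 libraries in 1 fit they made up 52.6%, and with a bound of 50 in at least 3 libraries 56.3%. Without abi4-1 replicate 3 there were 2084 calls in place of 3130, and the lower calls numbered 717 without R108 replicate 1 and 818, 819 and 785 without abi4-1 replicates 1, 2 and 3.

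**Figure D1:**
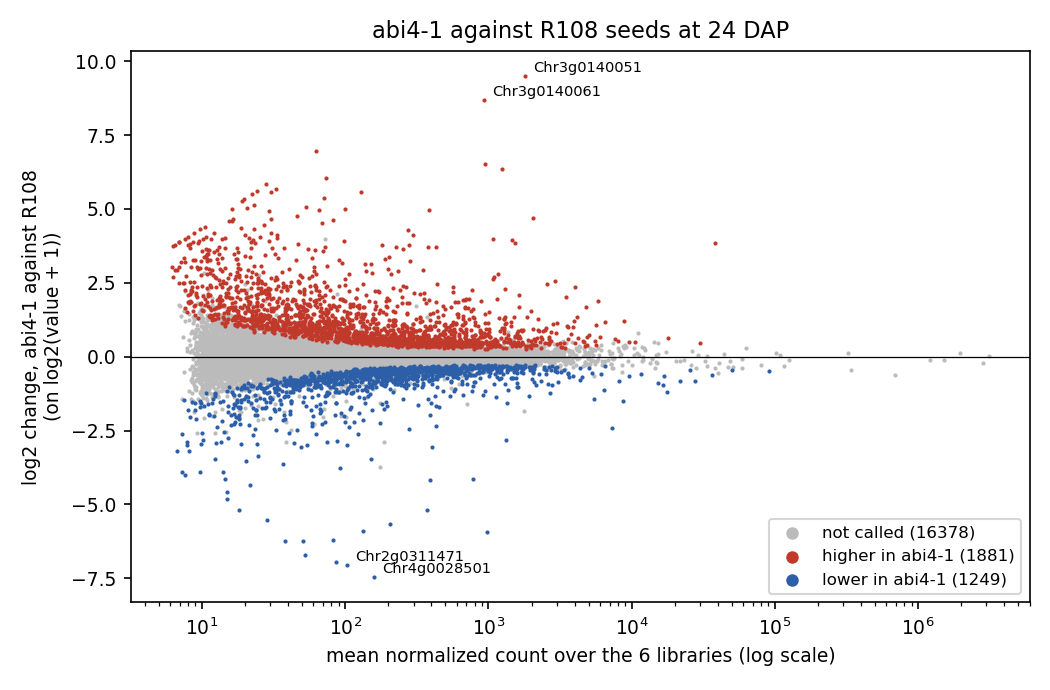
Log2 change at 24 DAP (vertical axis, abi4-1 against R108 on log2(value + 1)) against the mean normalized count over the 6 libraries (horizontal log axis), 1 point per identifier tested. Red points are the 1881 identifiers higher in abi4-1, blue points the 1249 lower, grey points were not called; red points reach further from 0 than blue over most of the range, and the 4 identifiers with the most extreme changes named in the text are marked.

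Of the 2048 called identifiers whose groups did not overlap and whose higher group averaged at least 100, 1120 were higher and 928 lower in abi4-1. The 2 with the largest rises carry neighbouring numbers, MtrunA17_Chr3g0140051 and MtrunA17_Chr3g0140061, and the 2 with the largest falls are MtrunA17_Chr4g0028501 and MtrunA17_Chr2g0311471. Next in order came changes of 6.97 upward and -6.96 downward on the log2 scale.

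MtrunA17_Chr3g0140051 stood at 8.37, 0 and 11.8 normalized counts in R108 replicates 1 to 3 and at 3483, 3301 and 3988 in abi4-1. Each abi4-1 library lay far above each R108 library. The log2 change was 9.50 ± 0.72 (SE, limma adjusted p = 1.7e-05) and ran from 7.82 to 10.7 over 16 alternative settings, all of them called. MtrunA17_Chr3g0140061 stood at 11.8, 0 and 5.87 in R108 and at 1871, 1585 and 2072 in abi4-1, again with no overlap. Its log2 change was 8.69 ± 0.70 (limma adjusted p = 2.6e-05). In the 3 abi4-1 libraries the first of the pair was 1.86 to 2.08 times the second. Whether the 2 neighbours share reads through similar sequence was not tested.

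Both identifiers were also higher in abi4-1 at 13 DAP, at a far lower level. There MtrunA17_Chr3g0140051 averaged 96.1 ± 19.1 in abi4-1 and 3.36 ± 3.26 in R108 (SD, n = 3), with a log2 change of 4.88 ± 0.67 (limma adjusted p = 0.00775; 0.0635 with a pseudocount of 0.1). MtrunA17_Chr3g0140061 averaged 54.7 ± 5.54 and 5.46 ± 5.13, with a log2 change of 3.44 ± 0.57 (limma adjusted p = 0.0196; 0.0548 without an intensity trend). In mature seeds MtrunA17_Chr3g0140051 was listed at 0 in each R108 library and averaged 24.3 ± 5.69 in abi4-1 and 41.9 ± 21.2 in abi4-2. MtrunA17_Chr3g0140061 was also listed at 0 in mature R108, and averaged 0.998 ± 1.73 in abi4-1 and 6.27 ± 4.91 in abi4-2. The 3 stages appear, from the values, to have been scaled separately, so levels of different stages stand side by side only as a description.

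The 2 identifiers that fell most were near-absent in every abi4-1 library. MtrunA17_Chr4g0028501 stood at 328, 289 and 332 normalized counts in R108 replicates 1 to 3 and at 0.75, 2.29 and 0 in abi4-1. MtrunA17_Chr2g0311471 stood at 213, 218 and 185 in R108 and at 0.79, 1.14 and 0 in abi4-1. The groups of both were far apart, with log2 changes of -7.47 ± 0.39 (limma adjusted p = 1.2e-06) and -7.04 ± 0.34 (adjusted p = 7.8e-07). The size of these changes depends on the pseudocount, from -9.07 to -4.89 and from -8.74 to -4.34 over 16 settings.

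Both had a far higher level in R108 at 13 DAP and none in mature seeds. MtrunA17_Chr4g0028501 averaged 5663 ± 919 in R108 at 13 DAP against 7.30 ± 3.62 in abi4-1 (log2 change -9.52 ± 0.34, limma adjusted p = 5.1e-06). MtrunA17_Chr2g0311471 averaged 7377 ± 34.8 in R108 against 9.77 ± 13.1 in abi4-1 (log2 change -10.5 ± 0.94, limma adjusted p = 0.000987). In mature seeds both were listed at 0 in each R108 and abi4-2 library, and no abi4-1 library exceeded 0.977.

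**Figure D2:**
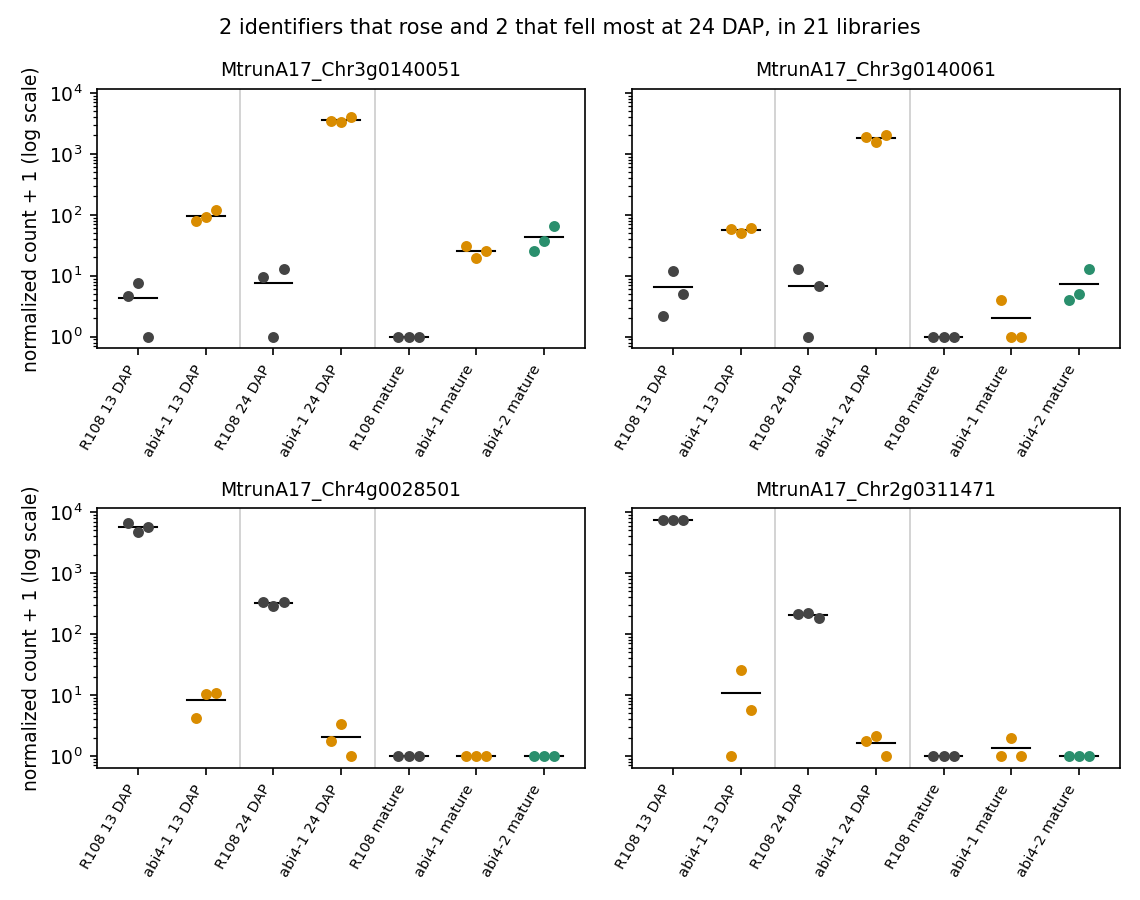
Normalized count + 1 (vertical log axis) in each of the 21 libraries for the 2 identifiers that rose and the 2 that fell most at 24 DAP. Each point is a library, bars are group means, and grey lines part the 3 stages (R108 dark, abi4-1 orange, abi4-2 green). The 2 upper identifiers lie at 1585 to 3988 in abi4-1 at 24 DAP and at 11.8 or less in R108, and the 2 lower ones lie at 185 to 332 in R108 and at 2.29 or less in abi4-1.

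A set of 68 identifiers was at 10 or more in every abi4-1 library and below 3 in every R108 library. In R108 their median was 0.385, 0.525 and 0 in replicates 1 to 3, and in abi4-1 it was 21.9, 20.0 and 21.7. The highest group mean among them was 145, and 2 of the 68 averaged 100 or more, so these are mostly low transcripts. The set numbered 40 with a mean of at least 10 over all 6 libraries as the bound, an alternative chosen after seeing the data, and 7 with a bound of 50 in at least 3 libraries. At 13 DAP 22 of the 68 averaged at least 10 in R108, in mature R108 seeds 12 did, and 37 did so at neither stage. Of 31 that were tested at 13 DAP, 9 were higher and 0 lower in abi4-1, beside 1.26% higher and 1.20% lower of all identifiers tested there. Among mature seeds 23 were tested, of which 15 were higher and 1 lower in abi4-1, beside 24.0 and 22.2% of all tested. In abi4-2, 11 were higher and 2 lower, beside 22.0 and 20.5%. These members passed the bounds of the other stages through whichever group reached them, so the counts are a description.

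The reverse held for 20 identifiers, present in every R108 library and near-absent in every abi4-1 library, and for 6 with a bound of 50. Their median was 30.1, 29.2 and 26.2 in R108 replicates 1 to 3 and 0.375, 0.51 and 0 in abi4-1. Most of them, 17 of 20, averaged at least 10 in R108 at 13 DAP, and 1 of 20 reached that level at neither other stage. Of the 17 tested at 13 DAP, 15 were lower and 0 higher in abi4-1, beside 1.20% lower and 1.26% higher of all identifiers tested there. In abi4-1 at 13 DAP 6 of the 20 averaged at least 10, so members could pass the bound there through R108 alone, which favours falls. These counts are a description. Among mature seeds 6 were tested, of which 3 were lower and 1 higher in abi4-1, and 2 were lower and 1 higher in abi4-2, numbers too small to set apart from the 22.2 and 20.5% lower of all tested.

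The transcripts that dominate the seed at this stage took, as a group, overlapping shares of the R108 and abi4-1 libraries. By share of reads, not per length, the 5 most abundant identifiers took 51.2, 53.2 and 54.0% of the R108 libraries and 51.6, 54.7 and 52.9% of the abi4-1 libraries. The groups overlapped, and the difference in means was 0.267 percentage points (two-sided exact permutation p = 0.8, smallest possible 0.1). Of these 5 identifiers, 4 lie on chromosome 1. Of the 10 most abundant, 0 were called by limma, 0 had an unadjusted p under 0.05, and 3 were called with the replicate number as a block. The limma SE fell with rank, from 0.49 for the first to 0.16 for rank 10 on the log2 scale. For the third it was 0.41, beside a log2 change of 0.14. These SEs include variance that limma draws from the intensity trend, so they are not the spread of the replicates alone. The third stood at 1.74e+06, 1.93e+06 and 1.95e+06 normalized counts in R108 replicates 1 to 3. In abi4-1 it stood at 1.93e+06, 2.20e+06 and 2.07e+06. Small changes could not be called with such SEs, so the counts of 0 do not show that these levels were the same.

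The third most abundant identifier took 9.13, 9.46 and 8.82% of the R108 libraries and 10.5, 10.7 and 10.3% of the abi4-1 libraries. The second took 14.2, 14.8 and 15.6% in R108 and 12.7, 13.6 and 13.8% in abi4-1. The sixth took 3.24, 4.02 and 4.83% in R108 and 2.20, 3.08 and 2.93% in abi4-1. Shares of the 2 groups did not overlap for these 3 and for 6 of the 10 in all, against 29.5% of all identifiers tested. In normalized counts as deposited, the groups did not overlap for 1 of the 10, that of rank 10, against 33.5% of all tested. The shares of each of the 6 gave a two-sided exact permutation p of 0.1, the smallest that 3 against 3 libraries allow. No difference could therefore pass a threshold of 0.05 in this test.

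Among the 50 most abundant identifiers, 3 were higher and 10 lower by limma, beside 9.64 and 6.40% of all tested. With the replicate block 25 were called, beside 11.8% higher and 9.19% lower of all tested, and with all 21 libraries in 1 fit 6. The 50 together took 67.6, 69.3 and 71.0% of R108 replicates 1 to 3 and 65.9, 68.7 and 67.9% of abi4-1. The groups overlapped (unpaired two-sided exact permutation p = 0.3). The share was lower in abi4-1 in each of the 3 same-numbered pairs, and the paired exact permutation p was 0.25, the smallest that 3 pairs allow. The 26th, on chromosome 4, averaged 5073 ± 1802 normalized counts in R108 and 70940 ± 6524 in abi4-1. It went from 0.0153 to 0.0343% of the R108 libraries to 0.345 to 0.367% of the abi4-1 libraries, with a log2 change of 3.86 ± 0.21 (limma adjusted p = 1.8e-06). The other 12 calls among the 50 had log2 changes between -1.19 and 0.64. The deepest fall among them was that of the 43rd, on chromosome 8, from 24385 ± 2708 to 10885 ± 2711 (log2 change -1.19 ± 0.17, limma adjusted p = 0.00103).

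**Figure D3:**
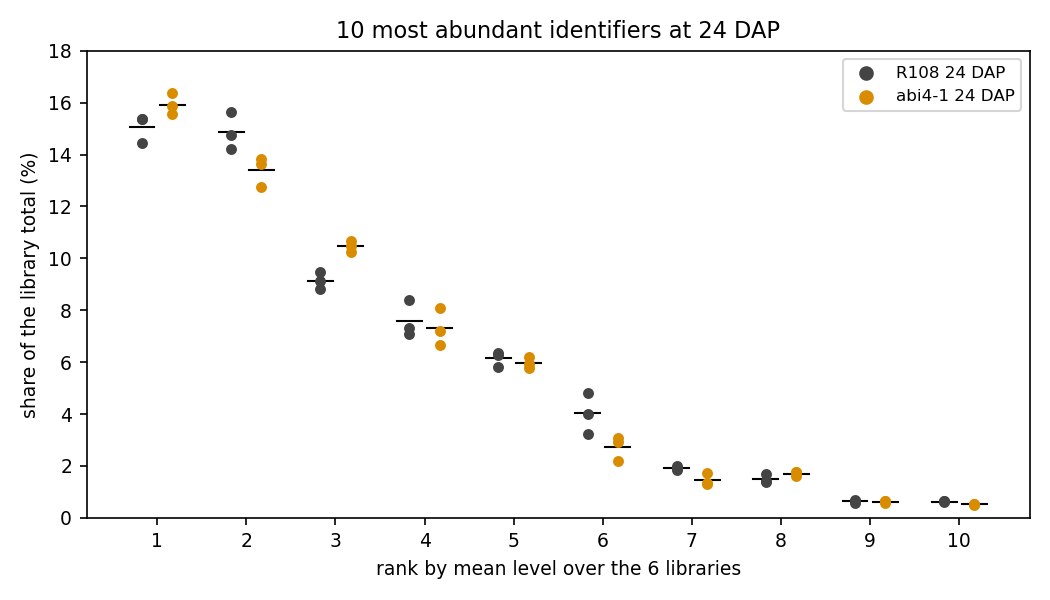
Share of the library total (vertical axis, %) of the 10 most abundant identifiers at 24 DAP by rank (horizontal axis), with 1 point per library and bars at the group mean, R108 dark and abi4-1 orange. The first 5 identifiers hold more than 51% of each library in both groups, and the shares of ranks 1, 2, 3, 6, 7 and 10 do not overlap between groups.

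Identifiers were next ordered by how R108 itself uses them outside this stage, by the log2 ratio of mature to 13 DAP seeds, from libraries that are not in the 24 DAP comparison. In the quintile most biased to 13 DAP, with a median log2 ratio of -5.96, 694 of 3902 identifiers were higher in abi4-1 at 24 DAP (17.8%) and 283 lower (7.25%). In the second quintile 442 of 3901 (11.3%) were higher and 189 (4.84%) lower. Quintiles 3 and 4 had 6.48 and 6.23% higher and 5.61 and 5.13% lower. In the quintile most biased to mature seeds, with a median log2 ratio of 1.98, 249 of 3902 (6.38%) were higher and 358 (9.17%) lower. Of the 333 rises of at least 4-fold, 134 lay in the first quintile and 77 in the second. Of the 88 falls of that size, 44 lay in the first and 18 in the last. By mean level at 24 DAP, 232 of these rises and 60 of these falls lay in the lowest quintile. The median of that level quintile was 18.5 normalized counts, so most large changes were of low transcripts.

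The median log2 change went from 0.077 in the first quintile to -0.048 in the last, beside -0.011 over all tested. Across the 19508 identifiers the change and the R108 ratio had a Spearman correlation of -0.113, given as a description since identifiers share libraries and are not independent. The excess of rises in the first quintile was present with the quintiles taken from abi4-1 in place of R108 (638 higher, 278 lower), and without the lowest quintile of expression level (555 of 2762 higher, 216 lower). The excess of falls in the last quintile was 352 against 287 and 319 against 186 in the same alternatives. It turned into an excess of rises with column totals (250 higher, 199 lower), with totals without the 5 most abundant identifiers (310 and 243), without R108 replicate 3 (250 and 247) and without abi4-1 replicate 2 (206 and 205). Falls in the first quintile numbered 172 without R108 replicate 1 and 175 without abi4-1 replicate 3. Falls in the last numbered 211 without R108 replicate 1 and 236 without abi4-1 replicate 1, and rises there 156 without abi4-1 replicate 3. Without an intensity trend falls in the last numbered 223, and with all 21 libraries in 1 fit 578.

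Calls of both directions occurred at every level of expression. In the lowest quintile by mean level over the 6 libraries, with a median of 18.5 normalized counts, 12.4% were higher and 4.43% lower. In the fourth quintile, with a median of 264, 7.77% were higher and 7.90% lower, and in the highest quintile, with a median of 730, 10.8 and 8.35%. Some identifiers passed the bound on low values through 1 group alone: 302 identifiers were tested because all 3 abi4-1 libraries and no R108 library reached 10, and 119 for the reverse reason. Of these 302, 243 were higher and 0 lower, and of the 119, 69 were lower, as that choice favours. Without both, 1638 were higher and 1180 lower, and rises made up 58.1% of the calls. Falls in the lowest level quintile, 173 in all, numbered 89 without R108 replicate 1 and 112, 106 and 102 without abi4-1 replicates 1, 2 and 3. In the highest, with 326 falls, they numbered 199 without R108 replicate 1, 205 and 217 without abi4-1 replicates 1 and 3, 147 with column totals, 190 with totals without the 5 most abundant identifiers, 120 without an intensity trend and 566 with the replicate block. Rises in the highest numbered 225 without a trend, in place of 422.

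**Figure D4:**
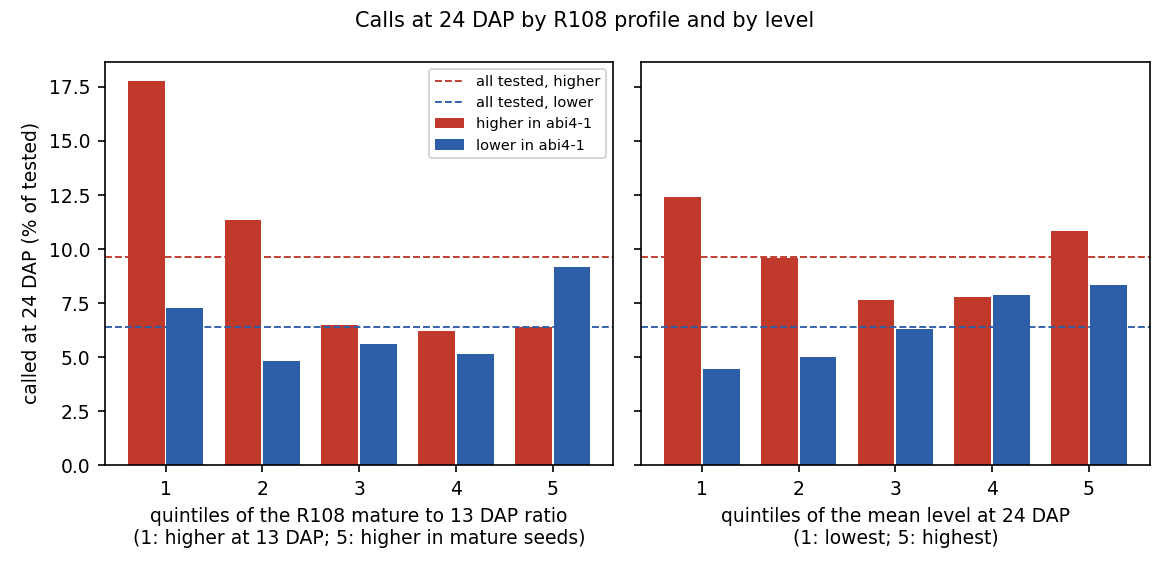
Percentage of tested identifiers called higher (red) or lower (blue) in abi4-1 at 24 DAP, by quintiles of the R108 mature to 13 DAP ratio (left, 1 most biased to 13 DAP) and by quintiles of the mean level at 24 DAP (right, 1 lowest); dashed lines are the percentages over all tested, 9.64 and 6.40%. The first profile quintile stands at 17.8% higher, and the last is the only profile quintile with more falls, 9.17%, than rises, 6.38%, on the deposited scale.

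Calls of both directions were found on every chromosome. On chromosomes 1 to 8, as the identifiers give them, 9.06 to 11.1% of tested identifiers were higher and 5.60 to 7.45% lower, close to the 9.64 and 6.40% of the whole. The highest share of rises was on chromosome 6, with 132 of 1189, and the highest share of falls on chromosome 5, with 158 of 2122. Consecutive tested identifiers, in the order of their numbers, were called higher together in 41 runs of at least 3 (130 identifiers) and lower together in 16 (49 identifiers). The longest runs were 2 of 5 on chromosome 7, both higher, with log2 changes of 2.20 to 3.32 in one and 0.35 to 1.23 in the other. A run of 4 on chromosome 6 had log2 changes of 2.81 to 4.69. The densest stretch of 20 consecutive tested identifiers had 9 higher and 0 lower on chromosome 7, and for falls 7 lower and 0 higher on chromosome 2. Reads shared between similar neighbours were not examined.

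Transcripts of the organelles, which carry genes for photosynthesis and respiration, were a minor part of these mRNA-enriched libraries. Of 67 plastid identifiers tested, 2 were higher (2.99%) and 7 lower (10.4%) in abi4-1, beside 9.64 and 6.40% of all tested. Their log2 changes ran from -2.89 to 0.68, with 46 of 67 below 0 and a median of -0.29. With the replicate block 5 were higher and 15 lower, and falls numbered 4 without R108 replicate 1 and 3 without abi4-1 replicate 2. The median depended on single libraries and was -0.48 when abi4-1 replicate 1 was omitted and -0.054 when replicate 2 was. The summed share of all 85 plastid identifiers was 0.107, 0.0735 and 0.0745% in R108 replicates 1 to 3 and 0.110, 0.0535 and 0.0778% in abi4-1. These groups overlapped (two-sided exact permutation p = 1). Of 7 mitochondrial identifiers tested 0 were called by limma, in this fit and in that with the replicate block, and 1 had an unadjusted p under 0.05. All 72 together made up 0.00205 ± 0.000176% of R108 and 0.00209 ± 0.000435% of abi4-1 libraries (SD, n = 3; two-sided exact permutation p = 0.9).

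The differences at 24 DAP were then looked up in the 13 DAP libraries, a separate set of 3 abi4-1 and 3 R108 libraries. Over all 22499 identifiers tested there, 1.26% were higher and 1.20% lower in abi4-1, and over the 18876 tested at both stages 1.31 and 1.11%. Of the 1738 higher calls of 24 DAP that were also tested at 13 DAP, 116 (6.67%) were higher and 16 (0.921%) lower at 13 DAP. These 116 were 47.0% of the 247 identifiers called higher there, counting those in both tests. Rises of 24 DAP were 1738 of the 18876 identifiers in both tests, and falls 1180. Of 1180 lower calls, 88 (7.46%) were lower and 18 (1.53%) higher, and the 88 were 41.9% of the 210 lower at 13 DAP. Of the 73 tested falls of at least 4-fold, 39 (53.4%) were also lower at 13 DAP and 1 higher. Of 253 rises of that size, 50 (19.8%) were higher and 3 lower. Members with low values in 1 group could pass the bound at 13 DAP through the other group alone. That favours falls for those passing through R108 and rises for those passing through abi4-1, so these counts are a description. With the replicate block 190 identifiers were higher at both stages in place of 116, and the opposite calls rose as well, from 16 to 34 for rises and from 18 to 49 for falls of 24 DAP. Without an intensity trend the shared rises numbered 65 and the opposite calls 3 and 5. Of the changes of at least 4-fold, 31 rises and 21 falls were shared with 13 DAP with a pseudocount of 10.

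In mature seeds the same lookup can be made in both mutant lines, each against the same 3 mature R108 libraries, none of which is in the 24 DAP comparison. Over all 19429 identifiers tested there, 24.0% were higher and 22.2% lower in abi4-1, and 22.0% higher and 20.5% lower in abi4-2. Over the 16505 also tested at 24 DAP, the shares were 24.4 and 23.9% in abi4-1, and 21.9 and 22.0% in abi4-2. Of the 24 DAP rises 1340 were tested in mature seeds, and 646 (48.2%) were higher and 165 (12.3%) lower in mature abi4-1. In mature abi4-2, a line with another insertion, 561 (41.9%) were higher and 173 (12.9%) lower. Of 1031 lower calls, 412 (40.0%) were lower and 213 (20.7%) higher in mature abi4-1, and 381 (37.0%) were lower and 193 (18.7%) higher in mature abi4-2. Seen from the other side, the recurring rises were 16.1% of the 4023 rises in mature abi4-1 and 15.6% of the 3607 in mature abi4-2, among identifiers tested at both stages. Rises of 24 DAP were 1340 of the 16505 identifiers so tested. The 412 shared falls of abi4-1 numbered 255 without R108 replicate 1 of 24 DAP and 259, 247 and 256 without abi4-1 replicates 1, 2 and 3. The 381 of abi4-2 numbered 243 without R108 replicate 1 and 239 without abi4-1 replicate 2. The opposite calls moved too. The 213 falls that were higher in mature abi4-1 numbered 120 without R108 replicate 1 and 138 without abi4-1 replicate 2, and the 193 of abi4-2 numbered 118 without R108 replicate 1. The 165 rises that were lower in mature abi4-1 numbered 104, 109 and 103 without abi4-1 replicates 1, 2 and 3, and the 173 of abi4-2 numbered 115 without abi4-1 replicate 3.

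Rises of at least 4-fold numbered 170 among the identifiers tested at maturity. Of these, 105 (61.8%) were higher and 7 lower in mature abi4-1, and 93 (54.7%) were higher and 13 lower in mature abi4-2. The median log2 change of these 170 was 1.24 in abi4-1 and 0.86 in abi4-2, beside -0.012 and -0.0087 over all identifiers tested at both stages. Of 44 such falls, 21 were lower in each line, with 8 higher in abi4-1 and 12 in abi4-2. The 170 were part of 333 rises of that size, and the 44 part of 88 falls. An identifier absent from mature R108 could pass the bound there through either mutant line alone, which favours rises. One absent from both lines could pass through R108 alone, which favours falls. The same holds for the calls of any size looked up in mature seeds, so all these counts are a description. With a pseudocount of 10 the shared large rises numbered 46 in abi4-1 and 40 in abi4-2. Of 1277 higher calls tested in all comparisons, 453 (35.5%) were higher in both mature lines, which share their R108 libraries, beside 16.0% of all 16157 identifiers so tested. Of 981 lower calls, 297 (30.3%) were lower in both, beside 15.6% of all. Called in none of the other 3 comparisons were 354 (27.7%) of the higher and 259 (26.4%) of the lower calls, beside 39.7% of all.

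**Figure D5:**
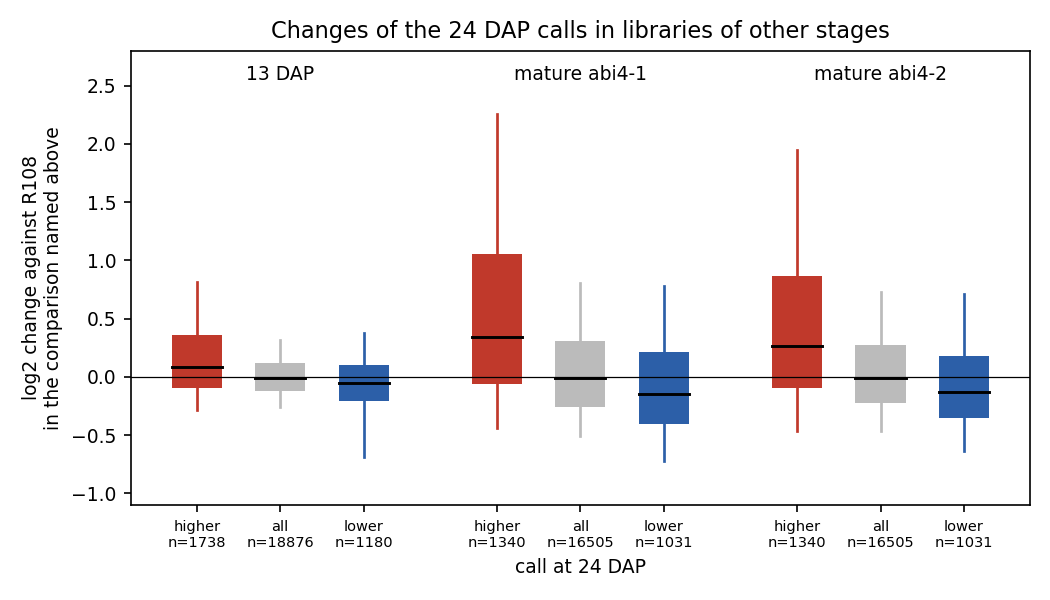
Log2 change against R108 (vertical axis) at 13 DAP, in mature abi4-1 and in mature abi4-2 seeds, for identifiers called higher (red) or lower (blue) at 24 DAP and for all tested at both stages (grey). Boxes span the quartiles, black bars are medians and whiskers run from the 10th to the 90th percentile; the red medians are 0.086, 0.34 and 0.27 and the blue ones -0.055, -0.15 and -0.13.

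Whether the genotype difference itself differed between stages was tested as an interaction in limma over 12 libraries of abi4-1 and R108. Between 24 and 13 DAP 6.23% of 23225 identifiers were called, 898 with a more positive and 550 with a more negative change at 24 DAP. The more negative ones numbered 886 with the replicate block and 357 without R108 replicate 1. Between 24 DAP and mature seeds 21.7% of 22163 were called, 2121 with a more positive and 2689 with a more negative change at 24 DAP. Of the 1881 higher calls of 24 DAP, 726 had a more positive change at 24 than at 13 DAP, and 717 a more positive change than in mature seeds. Of the 1249 lower calls, 362 had a more negative change at 24 than at 13 DAP, and 581 than in mature seeds. Within mature seeds 1340 of the 1881 and 1031 of the 1249 passed the bound on low values. For the rest, any difference sets 24 DAP against low values at maturity. These calls were chosen on the 24 DAP libraries, which also enter the interaction, so the counts are a description. Not passing that test does not show that the change was the same at the other stage.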

How the data were processed

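The series holds 21 RNA-seq libraries of seeds, 3 in each of 7 groups; the 6 libraries of 24 DAP carry the comparison. Per the labels' protocols, mRNA was enriched, primed at random and sequenced on the BGISEQ-500 platform. The submitters' processing notes list Salmon with no version. Not given in the sources used here are the genome build, the annotation and how values were normalized. The values deposited by the authors are named FPKM but are a signal on the scale of size-factor-normalized counts: within 24 DAP each library's median ratio to the geometric mean was 1.01, 1 read was worth 0.81 to 1.18, and totals were 18365151 to 22139476. Of values under 20, 39.8 to 76.1% lay within 0.1 of a whole multiple of 1 read, and count models were therefore left out. Stages were taken to have been scaled separately, an inference from the values, so each fit for calls within a stage used that stage alone. These fits held 6 libraries at 13 or 24 DAP and 9 in mature seeds. The interaction fits joined 24 DAP with 13 DAP or with mature seeds over 12 libraries, and 1 alternative fit held all 21.

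Log2(value + 1) was fitted with limma 3.58.1 (R 4.3.3) and an intensity trend, a scale that understates changes of low transcripts, for identifiers with at least 10 in at least 3 libraries of the fit. Calls have a Benjamini-Hochberg adjusted p under 0.05 over all identifiers tested. Shares of single libraries were compared by two-sided exact permutation tests. The members, lists and tests were chosen with earlier results of these data known. Named identifiers are the 2 largest rises and 2 largest falls among calls with groups that do not overlap and a mean of at least 100 in the higher group; ranks 26 and 43 and the runs of neighbours were described after their values were seen. The fit was also run on simulated counts with a common dispersion for all identifiers and no pairing of replicates. These libraries differ in that, so the run does not give the error rate of the calls reported here.

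The series' design text describes replicates as pools of seeds from different plants, but names mutants of another gene; the sample labels were followed. Should the replicates be technical, a p-value speaks of spread among libraries alone. No 2 replicates were alike within sampling noise (chi-square per identifier at least 7.03). Deviations of same-numbered R108 and abi4-1 libraries from their group means correlated at 0.339, 0.102 and 0.126, each above 0.1, which met the criterion for pairing. The reported fit has no block, and a block for the replicate number was fitted as an alternative. What same-numbered libraries have in common is not in the labels. Alternatives were the pseudocount, the bound on low values, the scaling, the replicate block, no trend, 1 fit of all libraries and leaving out each library.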

Additional observations from a re-analysis of the deposited data

Results flagged for a closer look

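Of the 4 named identifiers, 3 had a genotype difference that itself differed between 24 and 13 DAP, and all 4 between 24 DAP and mature seeds, by the limma interaction over 12 libraries. The 4 were picked for their large changes at 24 DAP, and those libraries enter the interaction, so its p-values are not independent of the choice. MtrunA17_Chr3g0140051 was higher in each abi4-1 than in each R108 library at all 3 stages, and its log2 change at 24 DAP exceeded that at 13 DAP by 4.62 (limma adjusted p = 0.0325) and that in mature seeds by 4.87 (adjusted p = 0.00287). Both calls were lost with a pseudocount of 0.1 (adjusted p = 0.333 and 0.346), and the first also without an intensity trend (0.0800) and without abi4-1 replicate 1, 2 or 3 (0.0689 to 0.0746). For MtrunA17_Chr3g0140061 the differences were 5.24 (adjusted p = 0.0106; 0.0899 with a pseudocount of 0.1) and 8.02 (adjusted p = 0.000206). In mature seeds that identifier averaged 0 in R108 and 0.998 in abi4-1. The difference of 8.02 therefore rests largely on the change at 24 DAP, 8.69, and adds little as a test of its own.

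MtrunA17_Chr4g0028501 had a change at 24 DAP that was less negative than at 13 DAP by 2.06 (limma adjusted p = 0.0498). That call was lost in 10 alternatives, with adjusted p from 0.0541 to 0.831, among them each omission of a library except that of abi4-1 replicate 3. Against mature seeds, where it was listed at 0 in each library of every line, the difference was -7.47 (adjusted p = 2.0e-06). MtrunA17_Chr2g0311471, also near 0 in all mature libraries, differed there by -7.37 (adjusted p = 1.8e-06). With values of 0 to 0.977 at maturity, both differences rest on the change at 24 DAP, -7.47 and -7.04, and add no test of their own.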

How the results depend on the processing

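No called change of a named identifier at 24 DAP changed sign or lost its call under the 16 alternatives run for it. Calls at 24 DAP numbered 2084 to 2877 with a library left out (1299 to 1789 higher, 717 to 1088 lower, lowest without abi4-1 replicate 3 for all and higher calls and without R108 replicate 1 for lower ones). Lower calls numbered 677 with column totals, 807 with totals without the 5 most abundant identifiers and 791 without an intensity trend. With the replicate number as a block 4098 identifiers were called, 2305 higher and 1793 lower, and the more negative interactions between 24 and 13 DAP numbered 886 in place of 550; they also numbered 886 with all 21 libraries in 1 fit, and 357 to 758 with a library left out. The block lost no call of a named identifier at 24 DAP.

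Rises shared with 13 DAP numbered 77 with a bound of 50, 190 with the block, 65 without a trend and 104 to 112 with a library left out. Rises shared with mature abi4-1 and abi4-2 numbered 416 and 372 with a bound of 50. Falls shared with them numbered 194 and 194 with column totals, 242 and 230 with totals without the 5 most abundant, 218 and 197 without a trend, and 247 to 317 and 239 to 301 with a library left out. Large changes depend on the pseudocount and the bound. At least 4-fold were 122 rises and 34 falls with a pseudocount of 10. They numbered 129 and 33 with a bound of 50, and 528 and 177 with no bound. The cause of these shifts was not tested. The plastid median kept its sign in every alternative run, and the mitochondrial median, of few transcripts, ran from -0.39 to 0.23. An alternative bound, a mean of at least 10 over all 6 libraries, was chosen after seeing the data and gave 1795 rises and 1220 falls, and both alternative groupings of the profile quintiles were chosen after seeing the data. The paired test of the most abundant transcripts was also chosen after seeing the data. The number of libraries, 3 a group, limits the precision.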
